A study of Mus musculus with 300 samples.

Results

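Kidneys of mice given WY14643 were compared directly with kidneys of mice given rosiglitazone, without passing through the vehicle group. The comparison took the kidney arrays labelled with either compound, 15 for each, and subtracted the rosiglitazone mean from the WY14643 mean of the same day. The difference therefore rests on 30 of the 300 arrays of the series, in groups of 5 animals on days 4, 8 and 15, and the 3 daily differences were averaged with equal weight. The spread behind each p-value was estimated over all 75 kidney arrays. Both compounds were given by mouth at 10 mg/kg. Kidneys of 30 vehicle animals, 10 a day, were measured the same way and serve as the background level, and the liver of the same animals serves for a comparison between tissues. Kidneys after GW501516 at 10 mg/kg enter only the estimate of the spread, and heart and skeletal muscle only the choice of a probe set for each gene. Strain, sex and age of the mice are not given in the sources used here, and each array is taken as 1 animal from its mouse number. The kidney was measured as whole-tissue RNA on Affymetrix mouse genome arrays. A level is a log2 intensity, a difference is WY14643 minus rosiglitazone on the log2 scale, and a positive difference means higher with WY14643.

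The peroxisome proliferator-activated receptors (PPARs) are nuclear receptors that bind fatty acids and, paired with a retinoid X receptor, switch genes on at repeats of the AGGTCA hexamer. PPAR-alpha, the receptor that WY14643 activates, is abundant in liver and in the proximal tubule of the kidney, which burns fatty acids for its transport work, and its known targets carry fatty acids into mitochondria and peroxisomes for oxidation. PPAR-gamma, the receptor of rosiglitazone, is best known from fat cells, and in the kidney it has been linked with the collecting duct and with salt and water retention under drugs of this kind. A direct comparison asks which kidney genes separate an agonist of the former receptor from an agonist of the latter.

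All 30 arrays were used. Kidney array medians over all probe sets ran from 5.05 to 5.38. Array 2 of the WY14643 day 4 group stood apart: it correlated with the mean of its group at 0.9845, against 0.9948 or above for the other arrays, and without it 325 genes passed the test, 284 of them shared with the full set. The mean level of the proximal tubule markers (16 genes) was 12.19 ± 0.077 (SD, n = 15) with WY14643, 12.24 ± 0.045 (SD, n = 15) with rosiglitazone and 12.24 ± 0.065 (SD, n = 30) with vehicle. Of 14 marker lists for kidney and foreign cell types, 12 had no called gene, and 2 of 135 markers were called, against 1.95% of all genes. A marker on several lists is counted in each. At that share short lists would mostly have no call, so these counts do not show that the cell composition was alike. The number of arrays limits the precision of each value, p-values measure the spread between these animals, and in whole tissue fewer cells of a type and less RNA per cell cannot be told apart.

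The compounds left the kidney with different levels of 355 of 18193 genes (1.95%). Of these, 152 (0.835%) were higher with WY14643 and 203 (1.12%) were higher with rosiglitazone. The genes higher with WY14643 were led by Cyp4a14, far ahead of the others, followed by Aldh1a7, S100a9 and Acot1, and those higher with rosiglitazone by a mixed group that included the clock gene Cry1 and the growth factor gene Fgf18. Calls are limma's moderated test with Benjamini-Hochberg adjusted p under 0.05 over all genes, and with only the 30 arrays fitted 532 genes passed. For most of the genes described, settings that ended a call or moved the difference by over 1.5 times are given beside it, leaving aside the replicate block. These settings include a covariate for the mean level of S100a8 and S100a9 in each array, and covariates for the first 2 principal components of the core clock genes. Both are built with genes that themselves differ between the compounds, so a call lost under them is not a test of a cause. At an unadjusted p under 0.05 there were 1904 genes, and 56 of the 355 calls reached 1.5-fold. The median difference over all genes was -0.01 and the median size of a called difference was 0.32. The sign was the same on all 3 days for 347 of the 355. In 9 genes (0.0495%) the 15 arrays of one compound lay wholly apart from the 15 of the other: Cyp4a14, Cox6b2, Reep6, Retsat, Eci1, Ehhadh and Acadvl above with WY14643 (0.0385%), and Cry1 and Klhl6 above with rosiglitazone (0.011%).

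Cyp4a14, a cytochrome P450 that hydroxylates the omega end of fatty acids, showed the widest separation. With WY14643 its level was 12.03, 13.31, 12.41, 12.28 and 12.30 on day 4, 13.18, 12.77, 12.60, 12.60 and 12.23 on day 8, and 12.63, 12.65, 12.46, 12.70 and 13.01 on day 15. With rosiglitazone it was 6.70, 9.23, 5.28, 6.38 and 6.04 on day 4, 6.42, 7.51, 5.89, 5.85 and 5.36 on day 8, and 6.49, 6.01, 7.95, 7.33 and 6.97 on day 15. Every WY14643 array lay above every rosiglitazone array, and the rosiglitazone arrays spread over 5.28 to 9.23, much as the vehicle arrays did over 5.26 to 9.12. The difference was 5.98 ± 0.31 (SE; adjusted p 1.09e-24), a 63.3-fold higher intensity with WY14643 (95% interval of the log2 difference 5.36 to 6.61). Against vehicle Cyp4a14 stood at 5.76 with WY14643 and at -0.22 with rosiglitazone (adjusted p 0.98). Genes of this family, like the thioesterases Acot1, Acot2 and Acot3 and the pair Aldh1a1 and Aldh1a7, are nearly alike in sequence, so a probe set may read more than 1 of them.

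Cox6b2, a cytochrome c oxidase subunit gene best known from testis, ranged from 7.57 through 8.48 to 9.15 (lowest, median and highest array) with WY14643 and from 6.73 through 6.99 to 7.31 with rosiglitazone. The difference was 1.42 ± 0.10 (adjusted p 6.01e-18), and the daily differences of 1.42, 1.47 and 1.37 were each called. Retsat, a retinol saturase that PPAR agonists are known to raise, ranged from 11.51 through 11.73 to 12.24 with WY14643 and from 10.59 through 10.81 to 11.25 with rosiglitazone, a difference of 0.94 ± 0.085 (adjusted p 3.41e-13). Neither gene overlapped between the compounds, and with rosiglitazone their differences from vehicle were 0.06 and 0.11 (adjusted p 0.991 and 0.79). The RefSeq promoter windows of both genes run from 250 bases before to 50 after the start site on GRCm38.p6. They are shown as examples of fully separated genes with such a window. Cox6b2 lies at chr7:4753045-4753344 on the minus strand and Retsat at chr6:72598352-72598651 on the plus strand. Neither window holds the direct repeat that PPARs bind (AGGTCA, 1 spacer base, AGGTCA), the bare hexamer AGGTCA, the E-box CACGTG or the D-box TTATGTAA on either strand, so neither has capitals.

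Cox6b2: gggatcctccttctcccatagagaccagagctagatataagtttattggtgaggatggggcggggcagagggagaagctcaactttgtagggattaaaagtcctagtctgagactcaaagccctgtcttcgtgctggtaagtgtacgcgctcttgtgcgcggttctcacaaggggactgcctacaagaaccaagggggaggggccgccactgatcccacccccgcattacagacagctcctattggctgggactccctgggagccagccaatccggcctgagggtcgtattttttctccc
Retsat: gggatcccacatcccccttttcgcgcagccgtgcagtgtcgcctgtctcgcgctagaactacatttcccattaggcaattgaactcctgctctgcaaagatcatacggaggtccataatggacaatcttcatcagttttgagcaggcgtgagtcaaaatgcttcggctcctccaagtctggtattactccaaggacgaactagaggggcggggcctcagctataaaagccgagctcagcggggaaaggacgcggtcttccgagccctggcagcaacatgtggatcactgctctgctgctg

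The direct repeat, searched on both strands, occurred in 13 of 32851 such windows (0.0396%), and in 0 of 124 genes higher with WY14643 and 0 of 162 genes higher with rosiglitazone. The hexamer AGGTCA, which the repeat contains, occurred in 16 of 124 genes (12.9%) and 34 of 162 genes (21.0%), against 2383 of 14452 measured genes with a window (16.5%). A window without a match says only that these letters are not in it. Of the 9 genes without overlap 7 had a window, and those of Acadvl and Klhl6 hold the hexamer AGGTCA.

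Other leading genes higher with WY14643 had varied roles. Acot1, a cytosolic acyl-CoA thioesterase, ranged from 8.73 through 9.45 to 10.91 with WY14643 and from 7.06 through 8.29 to 8.99 with rosiglitazone, overlapping at the ends (1.47 ± 0.18, adjusted p 1.94e-08). Its close relative Acot3 differed by 0.90 ± 0.22 (adjusted p 0.0104). The aldehyde dehydrogenase genes Aldh1a7 and Aldh1a1 differed by 1.98 ± 0.42 (adjusted p 0.00194) and 1.38 ± 0.38 (adjusted p 0.0357). Aldh1a1 ran from 6.19 to 9.55 with rosiglitazone and from 7.16 to 10.65 with WY14643, so the groups overlapped over much of their range, and its call was lost when any of 10 of the 30 arrays was left out. Reep6, a gene of endoplasmic reticulum shaping, ranged from 9.91 through 10.17 to 11.25 with WY14643 and from 8.51 through 9.32 to 9.85 with rosiglitazone (1.06 ± 0.15, adjusted p 1.28e-06), without overlap. Shc3, an adaptor of receptor tyrosine kinases, differed by 0.88 ± 0.10 (adjusted p 7.74e-09) and was called on every day. Slc7a12, an amino acid transporter of the kidney, differed by 0.90 ± 0.22 (adjusted p 0.00972), with daily differences of 0.42, 0.45 and 1.82. Calls in this set were lost with only the 30 arrays fitted for Slc7a12 (adjusted p 0.0589), and without day 8 for Acot3 (adjusted p 0.283) and Aldh1a1 (adjusted p 0.0706). Calls also ended with the S100 covariate for Acot3 (at 0.54, adjusted p 0.496), Aldh1a7 (adjusted p 0.127) and Aldh1a1 (adjusted p 0.182).

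S100a8 and S100a9, which encode the calcium-binding calprotectin of neutrophils, were higher with WY14643 by 1.46 ± 0.31 and 1.59 ± 0.30 (adjusted p 0.00251 and 0.000314). S100a9 with WY14643 was 8.14, 10.48, 6.38, 8.38 and 6.85 on day 4, 8.45, 6.38, 6.74, 6.55 and 6.71 on day 8, and 6.79, 5.91, 6.53, 9.70 and 10.19 on day 15, while rosiglitazone arrays ran from 5.44 to 6.57 and vehicle arrays from 5.61 to 8.31. The highest WY14643 arrays lay above all rosiglitazone and vehicle arrays. The others lay within the vehicle range, and several of them were also above every rosiglitazone array. Against vehicle neither compound passed for S100a9: WY14643 stood at 0.82 (adjusted p 0.0965) and rosiglitazone at -0.77 (adjusted p 0.141). The mean level of the macrophage and lymphoid markers (12 genes) ran from 5.81 to 6.85 with WY14643, highest in array 2 of day 4, and from 6.09 to 6.63 with rosiglitazone. Of these markers 1 was called, the macrophage receptor gene Csf1r, higher with rosiglitazone (-0.39 ± 0.097). With the mean level of S100a8 and S100a9 of each array as a covariate, a setting added after the data were seen, 155 genes were called, 130 of them shared with the 355. Since both genes differ between the compounds, this covariate can take up part of the compound difference itself. Over the genes called without it, the median size of the difference fell from 0.321 to 0.277 and the median SE rose from 0.0735 to 0.0852. The part of neutrophils in the other differences was not tested.

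**Figure D1:**
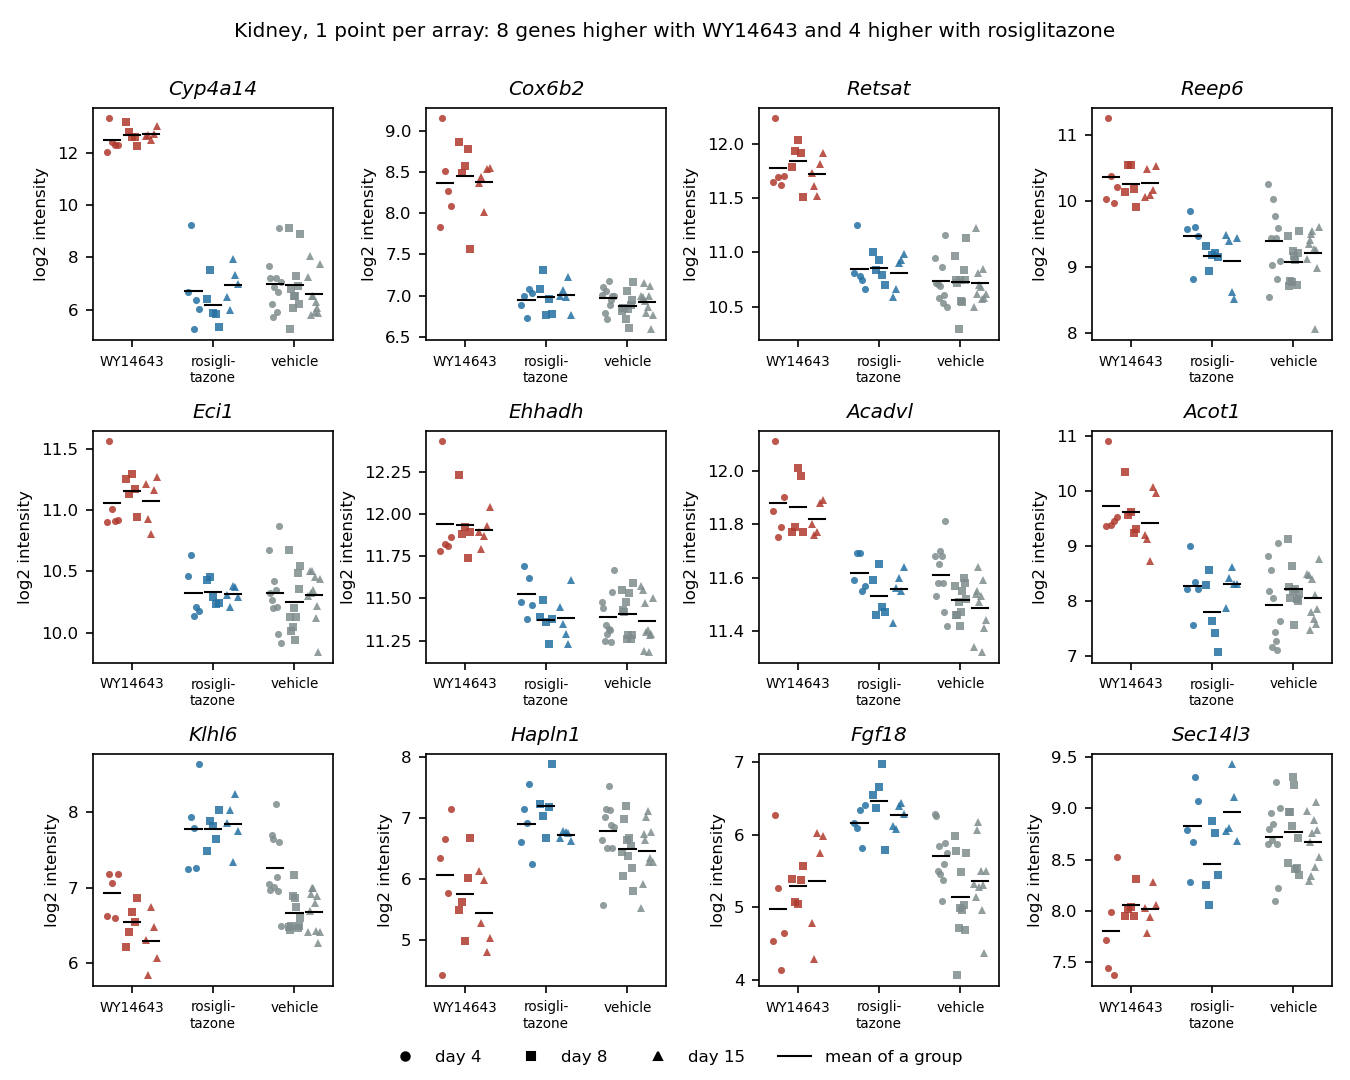
Log2 intensity in kidney (vertical axis, its range differing between panels) of 12 genes by compound, 1 point per array, with the symbol giving the day and the black line the mean of a group of 5 (vehicle, 10). Cyp4a14 sits between 12.03 and 13.31 with WY14643, above every rosiglitazone and vehicle array, and Klhl6 is lower with WY14643 than with rosiglitazone in all arrays.

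Genes higher with rosiglitazone shared no list to the same degree. Klhl6, an adaptor of cullin ubiquitin ligases known from B cells, ranged from 5.84 through 6.60 to 7.19 with WY14643 and from 7.25 through 7.82 to 8.64 with rosiglitazone, without overlap (-1.21 ± 0.13, adjusted p 2.89e-10; 2.31-fold higher with rosiglitazone). Against vehicle Klhl6 stood at 0.93 with rosiglitazone (adjusted p 4.03e-08) and at -0.28 with WY14643 (adjusted p 0.281). Fgf18, a secreted growth factor, ranged from 4.13 through 5.27 to 6.27 with WY14643 and from 5.79 through 6.34 to 6.97 with rosiglitazone (-1.09 ± 0.18, adjusted p 2.97e-05), and stood at 0.89 against vehicle with rosiglitazone and -0.19 with WY14643. Col27a1, a fibrillar collagen gene, differed by -0.70 ± 0.097 (adjusted p 4.55e-07), with rosiglitazone at 0.48 and WY14643 at -0.22 against vehicle. In these 3 genes the rosiglitazone group passed the test against vehicle and the WY14643 group did not.

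In another set the WY14643 group passed the test against vehicle and the rosiglitazone group did not. Hapln1, which links hyaluronan to proteoglycans, differed by -1.19 ± 0.20 (adjusted p 4.13e-05), with WY14643 at -0.82 against vehicle and rosiglitazone at 0.36 (adjusted p 0.00198 and 0.505). Mcm10, a DNA replication factor, differed by -0.88 ± 0.13, Upp2, a uridine phosphorylase, by -0.84 ± 0.12, Col19a1, a collagen gene, by -0.73 ± 0.15, and Snx31, a sorting nexin gene, by -0.71 ± 0.14 (adjusted p from 1.25e-06 to 0.00186). Sec14l3, a lipid-binding protein gene, ranged from 7.37 through 7.99 to 8.52 with WY14643 and from 8.06 through 8.78 to 9.43 with rosiglitazone, against 8.10 through 8.73 to 9.30 with vehicle (-0.79 ± 0.12, adjusted p 7.03e-06). Its promoter window, chr11:4064603-4064902 on the plus strand of GRCm38.p6 from RefSeq, is shown with the hexamer AGGTCA (206 bases before the start site) and the D-box TTATGTAA (56 bases before it) in capitals, because it holds both motifs. Among these genes calls were lost with the S100 covariate for Hapln1 (adjusted p 0.0515) and Col19a1 (adjusted p 0.114). With the S100 covariate Mcm10 moved to -0.55 and still passed.

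Sec14l3: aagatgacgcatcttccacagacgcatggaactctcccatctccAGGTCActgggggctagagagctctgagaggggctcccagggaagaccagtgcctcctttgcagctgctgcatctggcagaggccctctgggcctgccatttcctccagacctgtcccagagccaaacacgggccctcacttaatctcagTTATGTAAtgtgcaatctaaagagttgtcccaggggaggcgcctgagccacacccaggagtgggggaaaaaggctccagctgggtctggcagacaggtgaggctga

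The D-box occurred in 308 of 32851 windows (0.938%), in 0 of 124 genes higher with WY14643, in 5 of 162 genes higher with rosiglitazone (3.09%) and in 121 of 14452 measured genes (0.837%). Hsd17b13, a lipid droplet dehydrogenase of liver, differed by -1.38 ± 0.40, just inside the threshold (adjusted p 0.0489). Its WY14643 levels were 7.99, 4.51, 2.10, 7.30 and 6.56 on day 4, 5.68, 7.14, 6.33, 6.84 and 7.90 on day 8, and 6.29, 5.65, 7.25, 7.02 and 5.09 on day 15, against 6.53 to 8.61 with rosiglitazone, so the groups overlapped. Vehicle kidneys ran from 2.003 to 8.17. The call was lost when any of 22 of the 30 arrays was left out, and without array 3 of WY14643 day 4 the difference was -1.08 (adjusted p 0.133). Ct55, a cancer/testis gene, differed by -0.73 ± 0.19 (adjusted p 0.0255) and lost its call without any of 6 arrays. Both genes were sensitive to the setting, with calls lost without day 8 for Hsd17b13 (adjusted p 0.065) and Ct55 (adjusted p 0.082), and without the intensity trend for Hsd17b13 (adjusted p 0.0555). Further losses came over single probe sets for Hsd17b13 (adjusted p 0.0612), with the clock covariates for Hsd17b13 (adjusted p 0.0848) and Ct55 (adjusted p 0.0579), and with the S100 covariate for Hsd17b13 (adjusted p 0.2) and Ct55 (adjusted p 0.182). The loss over single probe sets is for the probe set that stands for the gene. Another Hsd17b13 probe set passed there, at -0.66 (adjusted p 0.0266).

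The PPAR target panel, genes that PPAR agonists are known to raise in liver, fat or muscle, separated the compounds mainly one way. Of its 32 measured genes 14 were higher with WY14643, 1 was higher with rosiglitazone and 17 were not called (46.9% called, against 1.95% of all genes), and the panel median was 0.25 against -0.01 over all genes. A direction in this or another list is not independent evidence, since the lists were chosen with such results known. Against vehicle, 20 panel genes were called higher with WY14643 (0.923% of all genes were) and 3 with rosiglitazone (0.907% of all genes), and 0 lower with either (0.813% and 0.61% of all genes). In all, 1.74% and 1.52% of genes were called in these comparisons. The 3 with rosiglitazone were Angptl4, Cpt1a and Slc25a20.

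Among the panel's enzymes, Vnn1, a pantetheinase, ranged from 11.46 through 11.86 to 12.70 with WY14643 and from 10.76 through 11.04 to 11.57 with rosiglitazone (0.82 ± 0.091, adjusted p 8.14e-10). Ehhadh, the bifunctional enzyme of peroxisomal oxidation, ranged from 11.74 through 11.88 to 12.43 and from 11.23 through 11.39 to 11.69 (0.50 ± 0.061, adjusted p 1.45e-08), without overlap. Acaa1b, a peroxisomal thiolase, differed by 0.55 ± 0.07, Acot2, a mitochondrial thioesterase, by 0.58 ± 0.083, and Cyp4a31, a relative of Cyp4a14, by 0.75 ± 0.14. The acyl-CoA dehydrogenase genes Acadl, Acadvl and Acadm, which start mitochondrial oxidation of long and medium chains, differed by 0.38 ± 0.055, 0.29 ± 0.043 and 0.15 ± 0.04. Mogat1, a monoacylglycerol acyltransferase, differed by 0.25 ± 0.051, and Pex11a, which divides peroxisomes, by 0.20 ± 0.053. The calls of Acadm (adjusted p 0.0258) and Pex11a (adjusted p 0.023) were lost when any of 6 and any of 3 arrays was left out. Panel calls were also lost with only the 30 arrays fitted for Pex11a (adjusted p 0.0507), and without day 8 for Cyp4a31 (adjusted p 0.0869), Acadm (adjusted p 0.461) and Pex11a (at 0.086, adjusted p 0.848). The same happened with centred arrays for Acadm (adjusted p 0.0751) and Pex11a (adjusted p 0.066), with the clock covariates for Acadm (at 0.097, adjusted p 0.301), and with the S100 covariate for Cyp4a31 (adjusted p 0.0818), Acadm (adjusted p 0.157) and Pex11a (adjusted p 0.436). With the clock covariates Pex11a moved to 0.32 and still passed. Another Pex11a probe set stood at 0.18 and did not pass over single probe sets (adjusted p 0.398).

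Pdk4, the kinase that shuts pyruvate out of mitochondrial oxidation, was 0.87 ± 0.16 higher with WY14643 (adjusted p 0.000326), but its daily differences were -0.07, 1.37 and 1.31, with days 8 and 15 called. Its call was lost without day 8 (adjusted p 0.131) and with the S100 covariate (adjusted p 0.063). Cpt1a, which admits long chains to mitochondria, went the other way by -0.15 ± 0.041 (adjusted p 0.0345): rosiglitazone stood at 0.18 against vehicle and WY14643 at 0.03, and the call was lost when any of 11 arrays was left out. It did not pass either without the intensity trend (adjusted p 0.0501), with the clock covariates (adjusted p 0.186) and with the S100 covariate (adjusted p 0.0963). Other Cpt1a probe sets, at mean levels of 9.69 and 9.74, stood at 0.073 and 0.017 and did not pass (adjusted p 0.97 and 0.995). Fabp1, the liver fatty acid carrier, ranged from 6.28 through 8.62 to 12.08 with WY14643 and from 4.75 through 7.22 to 9.64 with rosiglitazone, and its difference of 1.83 ± 0.58 (95% interval 0.67 to 2.99) did not pass (adjusted p 0.0923). Fabp1 did pass with only the 30 arrays fitted (adjusted p 0.0307), and without day 8 it fell to 0.94 (adjusted p 0.846). Angptl4, an inhibitor of lipoprotein lipase that both compounds raised against vehicle (1.14 with WY14643 and 0.79 with rosiglitazone), did not pass either at 0.35 ± 0.16 (95% interval 0.03 to 0.67). Slc25a20, which carries acylcarnitines into mitochondria, was likewise raised by both (0.31 and 0.20) and differed by 0.10 ± 0.056 (adjusted p 0.559). With the clock covariates Slc25a20 passed, at 0.24 (adjusted p 0.0453). For the fatty acid carriers Fabp3 and Fabp4, the translocase Cd36, the lipase Lpl and the hormone gene Fgf21 the differences were 0.02, 0.10, -0.10, -0.05 and -0.02, with intervals within -0.29 and 0.40. Fgf21 was dim in kidney, at a mean level of 3.485, where a difference might not be seen. With the clock covariates Cd36 passed, at -0.35 (adjusted p 0.024). The other 9 panel genes without a call lay between -0.14 (Creb3l3, a liver transcription factor) and 0.30 (Cidec, a lipid droplet protein).

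**Figure D2:**
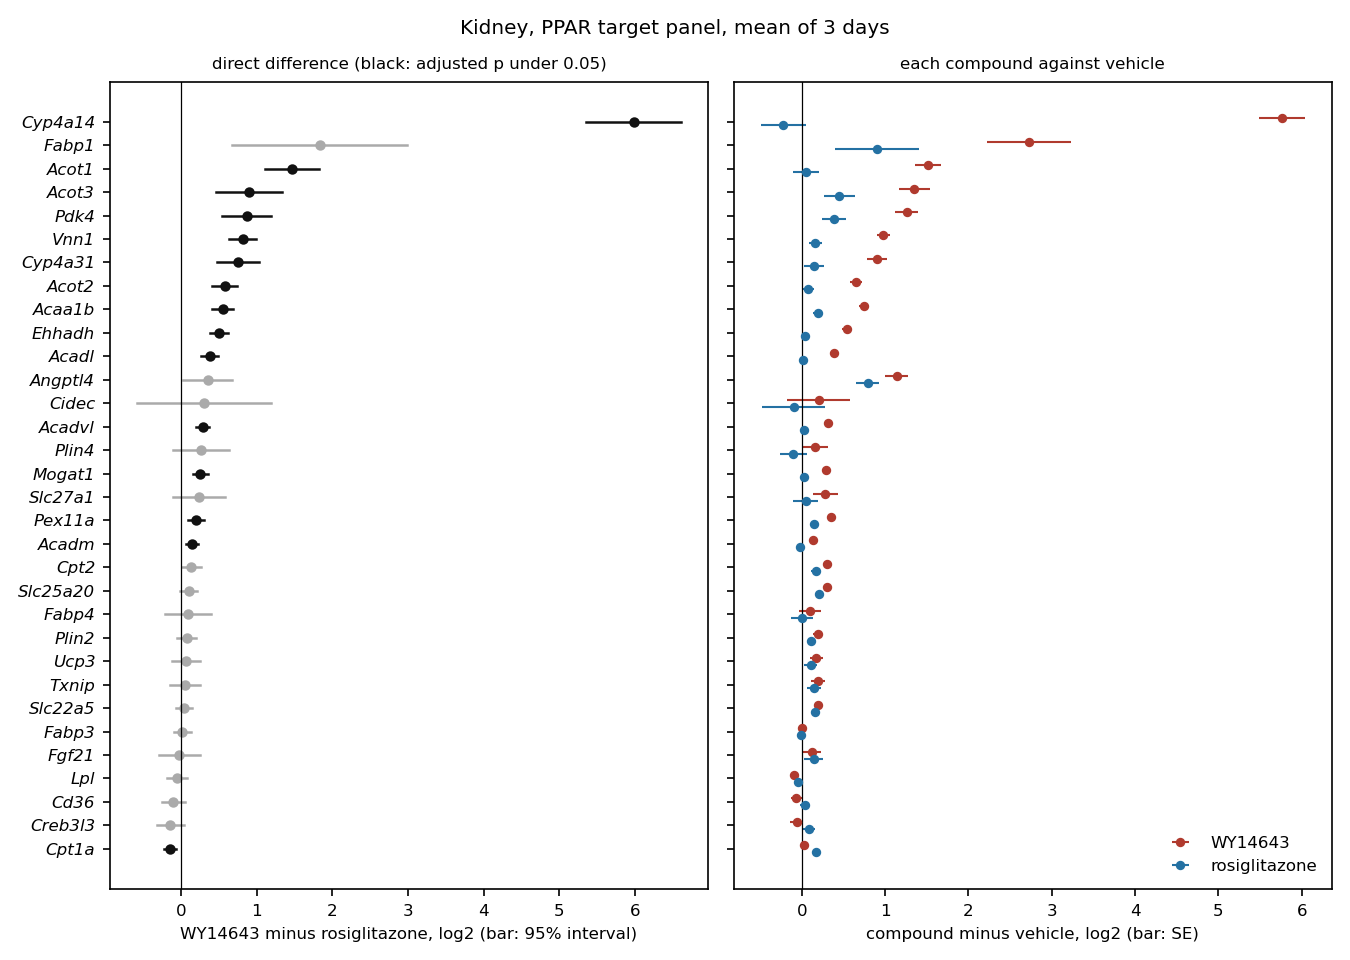
Values in kidney for the 32 PPAR target genes on the array, mean of 3 days: left, the direct difference WY14643 minus rosiglitazone with its 95% interval (black where the adjusted p is under 0.05), right, each compound minus vehicle with its SE, all in log2. The 14 called genes to the right of 0 did not pass the test of rosiglitazone against vehicle, and Cpt1a is the called gene to the left of 0.

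Mitochondrial fatty acid oxidation had 10 of 29 genes higher with WY14643 and 1, Cpt1a, higher with rosiglitazone (37.9% called). Eci1, an isomerase of unsaturated chains, ranged from 10.80 through 11.13 to 11.56 with WY14643 and from 10.14 through 10.29 to 10.63 with rosiglitazone (0.78 ± 0.077, adjusted p 1.96e-11), without overlap. Acaa2, the mitochondrial thiolase, differed by 0.59 ± 0.092 (adjusted p 5.73e-06). Of 50 peroxisomal genes 9 were higher with WY14643 and 2 with rosiglitazone (22% called). Hacl1, a lyase of alpha oxidation, was on the WY14643 side (0.49 ± 0.10), while Phyh, the hydroxylase of the same pathway (-0.18 ± 0.048), and Pex3, a membrane assembly factor (-0.15 ± 0.042), were on the other. The calls of Phyh and Pex3 were lost without any of 2 and 10 arrays. The medians of these lists were 0.04 and -0.00032. Acyl-CoA thioesterases had 4 of 13 higher with WY14643 (Acot1, Acot3, Acot2 and Acot8; 30.8%) and the Cyp4 list 3 of 17 (Cyp4a14, Cyp4a31 and Cyp4f16; 17.6%), and in these lists 0 were higher with rosiglitazone. The lists share members, so their counts are not separate results. Acot1, Acot2, Acot3, Cyp4a14 and Cyp4a31 are also called panel genes, as are several called members of the oxidation and peroxisome lists. Oxidation and Cyp4 genes lost calls with only the 30 arrays fitted for Pex3 (adjusted p 0.0681) and Cyp4f16 (adjusted p 0.0598), and without day 8 for Phyh (adjusted p 0.131), Acot8 (adjusted p 0.0529) and Cyp4f16 (adjusted p 0.406). Calls also ended with the clock covariates for Hacl1 (adjusted p 0.162), Acot8 (at 0.13, adjusted p 0.256) and Cyp4f16 (adjusted p 0.153), and with the S100 covariate for Hacl1 (at 0.24, adjusted p 0.457), Phyh (adjusted p 0.172), Pex3 (at -0.074, adjusted p 0.716), Acot8 (at 0.12, adjusted p 0.472) and Cyp4f16 (adjusted p 0.322). With the clock covariates Phyh moved to -0.32 and still passed.

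Lipid handling beyond oxidation split both ways. Mgll, which releases the last fatty acid of a stored triglyceride, ranged from 10.09 through 10.48 to 10.71 with WY14643 and from 9.43 through 9.80 to 10.10 with rosiglitazone (0.66 ± 0.07, adjusted p 2.44e-10). It led a lipid droplet list with 2 of 27 higher with WY14643 and 1, Cideb (-0.19 ± 0.047), higher with rosiglitazone (11.1% called). Fatty acid uptake and activation genes were 2 and 2 of 26 (15.4%): the acyl-CoA synthetase gene Acsl3 (0.73 ± 0.091) and the brain-type carrier Fabp7 (0.47 ± 0.11) against the medium-chain synthetases Acsm5 (-0.25 ± 0.057) and Acsm1 (-0.25 ± 0.055). For Fabp7 rosiglitazone stood at -0.59 against vehicle (called) and WY14643 at -0.12. The ketone body list had 2 of 8 members higher with rosiglitazone, Aacs, which feeds ketone bodies into lipid synthesis (-0.43 ± 0.074), and Bdh1, which interconverts them (-0.36 ± 0.067), a share of 25%. In these lists calls were lost with the clock covariates for Fabp7 (adjusted p 0.111), and with the S100 covariate for Cideb (at -0.10, adjusted p 0.56), Fabp7 (adjusted p 0.381), Acsm5 (adjusted p 0.105) and Acsm1 (at -0.16, adjusted p 0.33).

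In sterol and fatty acid synthesis the called genes were higher with WY14643. Of 20 cholesterol synthesis genes 6 were higher with WY14643 and 0 with rosiglitazone (30% called, median 0.18), led by the epoxidase gene Sqle, which ranged from 8.05 through 8.65 to 9.18 and from 7.82 through 7.96 to 8.58 (0.60 ± 0.083, adjusted p 4.6e-07). Fdps, Msmo1 and Fdft1, other enzymes of the pathway, differed by 0.59 ± 0.10, 0.45 ± 0.075 and 0.44 ± 0.063. Against vehicle the differences of Sqle were 0.43 with WY14643 and -0.17 with rosiglitazone (adjusted p 2.81e-05 and 0.387), and those of Msmo1 were 0.22 and -0.23 (adjusted p 0.0701 and 0.0446). Of 18 fatty acid synthesis genes 5 were higher with WY14643 and 0 with rosiglitazone (27.8% called, median 0.17), namely the desaturases Scd1 (0.77 ± 0.18), Scd2 (0.49 ± 0.10) and Fads1 (0.37 ± 0.091), the regulator Srebf1 (0.39 ± 0.083) and the elongase Elovl5 (0.11 ± 0.029). Synthesis genes lost calls without day 8 for Scd1 (adjusted p 0.0843), and with the clock covariates for Fdps (at 0.38, adjusted p 0.105) and Fads1 (adjusted p 0.217). Further losses came with the S100 covariate for Scd2 (adjusted p 0.13), Fads1 (adjusted p 0.0921) and Srebf1 (adjusted p 0.126). With the clock covariates Srebf1 moved to 0.61 and still passed. Other Scd2 probe sets stood at 0.48 and 0.30 and did not pass over single probe sets (adjusted p 0.492 and 0.708).

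Among 16 genes of the receptors and their coregulators 1 was called (6.25%). Ppara, the gene of PPAR-alpha, was lower with the agonist of that receptor: 8.04 through 8.27 to 8.88 with WY14643 against 8.53 through 8.79 to 9.32 with rosiglitazone, overlapping at the ends (-0.49 ± 0.089, adjusted p 0.000162). Rosiglitazone stood at 0.33 against vehicle and WY14643 at -0.16 (adjusted p 0.00697 and 0.484). Pparg and Ppard differed by 0.09 ± 0.11 and 0.15 ± 0.093 (adjusted p 0.92 and 0.658).

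**Figure D3:**
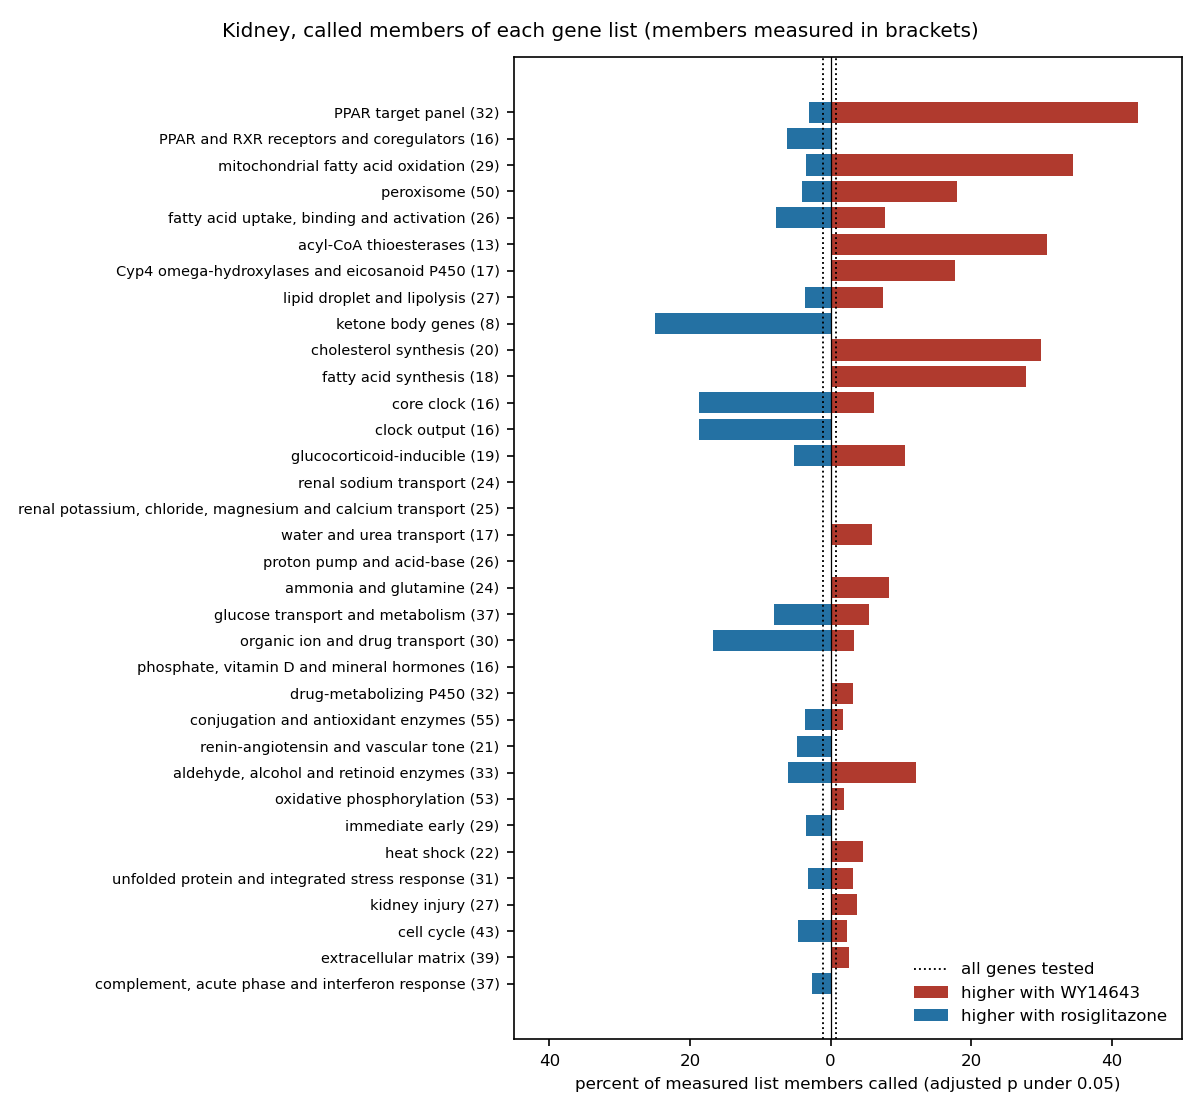
Percent of the measured members of each gene list that were called higher with WY14643 (red, to the right) or higher with rosiglitazone (blue, to the left); dotted lines give the same over all 18193 genes, 0.835% and 1.12%. The PPAR panel reaches furthest to the right with 14 of 32, and sodium transport, ion transport, acid-base and phosphate lists have no called member.

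The clock gene Cry1 was among the leading genes higher with rosiglitazone, while other called clock genes differed less and in both directions. Cry1, a repressor in the core clock, was 5.24, 5.999, 6.14, 5.91 and 6.53 with WY14643 and 7.17, 8.01, 7.17, 7.54 and 7.65 with rosiglitazone on day 4. On day 8 it was 6.37, 6.98, 6.37, 6.27 and 6.81 against 7.69, 8.33, 7.23, 7.45 and 7.22, and on day 15 6.61, 6.64, 7.05, 6.47 and 6.84 against 7.12, 7.75, 7.75, 8.19 and 8.09. No array of one compound reached the range of the other, and the difference was -1.21 ± 0.14 (adjusted p 2.18e-09; 2.31-fold higher with rosiglitazone). Vehicle means differed between days as well, at 6.65 on day 4, 5.44 on day 8 and 5.76 on day 15. Against vehicle rosiglitazone stood at 1.67 and WY14643 at 0.46 (adjusted p 2.41e-17 and 0.0221). The Cry1 promoter window, chr10:85185005-85185304 on the minus strand of GRCm38.p6 from RefSeq, is shown with its E-box CACGTG, a site that clock activators bind, 60 bases before the start site in capitals.

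Cry1: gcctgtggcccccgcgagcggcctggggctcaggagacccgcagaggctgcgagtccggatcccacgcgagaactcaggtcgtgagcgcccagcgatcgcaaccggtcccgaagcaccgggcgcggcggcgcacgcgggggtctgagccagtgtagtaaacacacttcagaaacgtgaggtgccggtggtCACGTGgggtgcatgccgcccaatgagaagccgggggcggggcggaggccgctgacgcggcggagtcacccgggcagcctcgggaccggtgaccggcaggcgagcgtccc

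The E-box occurred in 2349 of 32851 windows (7.15%), in 12 of 124 genes higher with WY14643 (9.68%), in 21 of 162 higher with rosiglitazone (13.0%) and in 1479 of 14452 measured genes (10.2%). Of 16 core clock genes 4 were called (25%). Of these, 3 were higher with rosiglitazone, Cry1, its partner Cry2 (-0.32 ± 0.064) and the nuclear receptor gene Rora (-0.16 ± 0.031), and 1 was higher with WY14643, Nr1d1, a nuclear receptor that represses clock genes (0.61 ± 0.11, adjusted p 0.00023). Nr1d1 ranged from 7.54 through 8.16 to 8.71 with WY14643 and from 6.50 through 7.76 to 8.17 with rosiglitazone, with daily differences of 0.91, 0.19 and 0.74. Of 16 clock output genes 3 were higher with rosiglitazone and 0 with WY14643 (18.8% called), Nampt, which makes an NAD precursor (-0.29 ± 0.04), the kinase gene Wee1 (-0.35 ± 0.097, lost without any of 16 arrays) and Tspan4 (-0.23 ± 0.059, lost without any of 3). Clock calls were further lost without day 8 for Rora (at -0.096, adjusted p 0.32) and Tspan4 (adjusted p 0.155), and over single probe sets for Wee1 (adjusted p 0.0501). The same happened with the clock covariates for Rora (adjusted p 0.0506), Nampt (at -0.14, adjusted p 0.0772), Wee1 (at 0.058, adjusted p 0.804) and Tspan4 (at -0.031, adjusted p 0.842), and with the S100 covariate for Wee1 (at -0.21, adjusted p 0.611). Per2 and Nfil3 were at -0.37 ± 0.12 and -0.59 ± 0.17 (adjusted p 0.13 and 0.0532). The hour of collection of each animal is not given in the sources used here, and its part was not tested. With the first 2 principal components of the core clock genes as covariates, Cry1 was at -0.26 (adjusted p 0.135) and Nr1d1 at 0.06 (adjusted p 0.695). These covariates contain Cry1 and Nr1d1 themselves. Under them Cyp4a14 was at 6.73, Cox6b2 at 1.75 and Klhl6 at -1.16, all called.

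**Figure D4:**
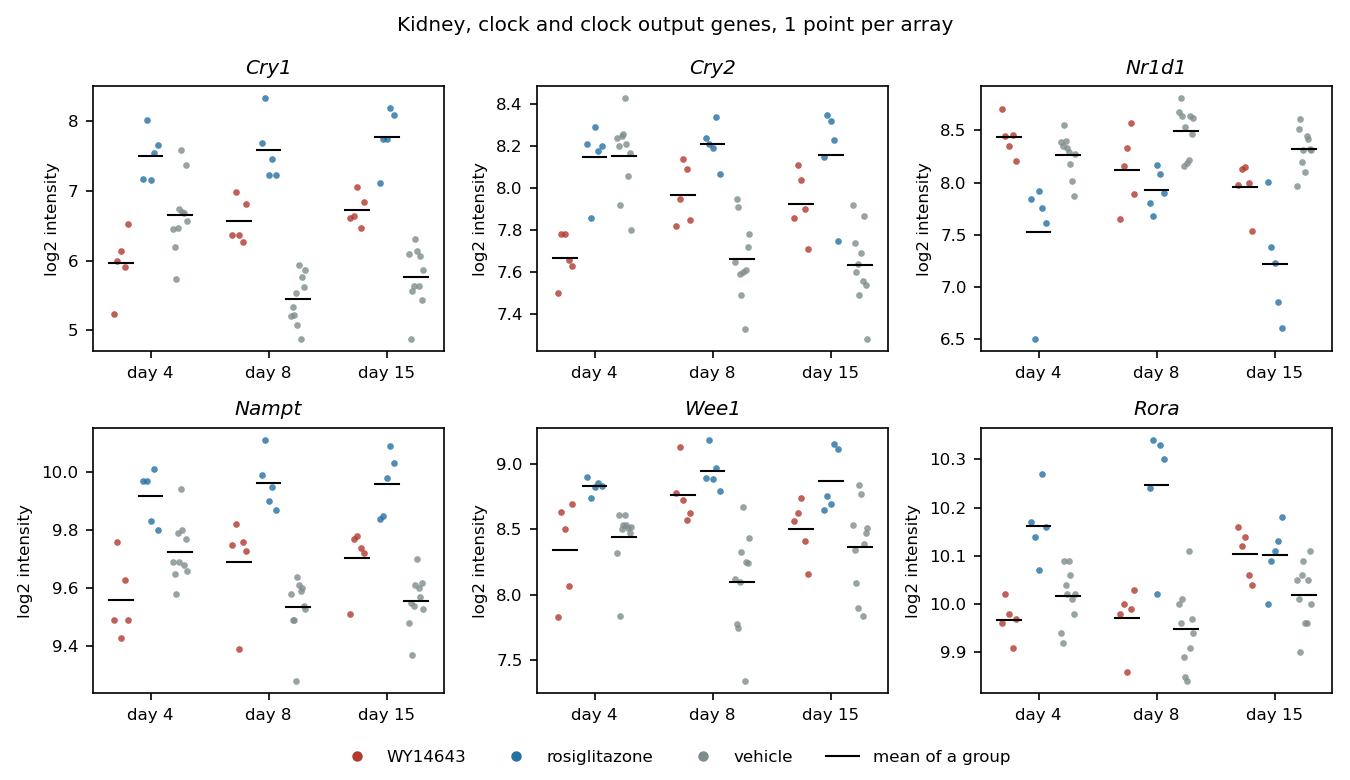
Log2 intensity in kidney of 6 clock and clock output genes by day, 1 point per array, with the black line as the mean of 5 (vehicle, 10) arrays and the vertical range differing between panels. The rosiglitazone mean lies above the WY14643 mean for Cry1 and Nampt on every day and below it for Nr1d1, and for Rora the daily differences are -0.19, -0.27 and 0.00 on day 15.

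Renal transport lists ranged from 0% called to 20%, against 1.95% of all genes, with the calls mainly in organic ion and drug transport. None of the 24 sodium transport genes was called by limma, and 0 had an unadjusted p under 0.05: differences ran from -0.13 (Usp2) to 0.09 (Slc12a1), with 95% intervals within -0.34 and 0.36. This list covers the collecting duct channel subunits Scnn1a, Scnn1b and Scnn1g (0.02 ± 0.11, 0.05 ± 0.075 and -0.04 ± 0.15), the kinase gene Sgk1 (-0.02 ± 0.078) and the chloride cotransporters Slc12a1 and Slc12a3 (0.09 ± 0.10 and 0.06 ± 0.12). In limma the lists of potassium, chloride, magnesium and calcium transport (25 genes), proton pump and acid-base (26) and phosphate and vitamin D (16) also had 0 called, with 2, 4 and 3 genes at an unadjusted p under 0.05. Water and urea transport had 1 of 17 (5.88%), the vasopressin receptor gene Avpr1a (0.48 ± 0.096), where rosiglitazone stood at -0.42 against vehicle and WY14643 at 0.06. Another Avpr1a probe set, at a mean level of 4.81, stood at 0.17 and did not pass over single probe sets (adjusted p 0.748). Of 30 organic ion and drug transport genes 1 was higher with WY14643 and 5 with rosiglitazone (20% called). The exporter gene Abcc3 was at 0.44 ± 0.12, and the transporter genes Slc22a8 and Slc22a7 and the bile acid carrier subunit Slc51a were at -0.42 ± 0.11, -0.41 ± 0.10 and -0.42 ± 0.12. The calls of Abcc3, Slc51a and Slc22a8 were lost without any of 3, 11 and 8 arrays, and Slc22a8 was the called gene among the 16 proximal tubule markers. Transport genes lost calls with only the 30 arrays fitted for Slc22a7 (adjusted p 0.0881) and Slc51a (adjusted p 0.153), and without day 8 for Abcc3 (adjusted p 0.122) and Slc22a8 (adjusted p 0.14). Calls also ended with the clock covariates for Slc22a8 (adjusted p 0.108) and Slc51a (adjusted p 0.0848), and with the S100 covariate for Avpr1a (adjusted p 0.14), Abcc3 (adjusted p 0.181), Slc22a8 (adjusted p 0.194), Slc22a7 (at -0.25, adjusted p 0.531) and Slc51a (at -0.080, adjusted p 0.944). With the clock covariates Abcc3 moved to 0.72 and still passed.

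In sugar and amino acid metabolism, stress and growth lists 1 to 5 genes each were called. In lists of this size 1 call already gives a share near or above the 1.95% of all genes. The shares below are therefore not read as a result about the lists. Among 37 glucose genes 5 were called (13.5%), including Pdk4 and the related kinase gene Pdk3 (-0.20 ± 0.055). G6pc, the last enzyme of gluconeogenesis, was higher with rosiglitazone (-0.36 ± 0.059), as was Ldhd, a D-lactate dehydrogenase (-0.27 ± 0.051), and Fbp2, a fructose bisphosphatase, was higher with WY14643 (0.45 ± 0.10). Asns, the asparagine synthetase of the amino acid stress response, was at 0.62 ± 0.12 and Sesn2, another stress gene, at -0.31 ± 0.088 (lost without any of 18 arrays), as 2 calls of 31 (6.45%). Of 24 ammonia and glutamine genes, the arginase gene Arg2 (0.70 ± 0.20, adjusted p 0.0492, lost without any of 17 arrays) and the amino acid transporter Slc7a8 (0.42 ± 0.10) were higher with WY14643 (8.33% called). Of 43 cell cycle genes the thymidine kinase gene Tk1 (-0.50 ± 0.08) and the kinesin gene Cenpe (-0.55 ± 0.13) were higher with rosiglitazone and the inhibitor Cdkn1a (0.45 ± 0.11) higher with WY14643 (6.98% called). Of 27 kidney injury genes 1 was called (3.7%), Lgals3 (0.40 ± 0.11, lost without any of 8 arrays). Ace, the angiotensin-converting enzyme gene, was the call among 21 genes of vascular tone (-0.33 ± 0.083; 4.76%), and Cox6b2 the call among 53 of oxidative phosphorylation (1.89%). Of 32 drug-metabolizing P450 genes 1 was called (3.12%; Cyp2d9, 0.58 ± 0.16, lost without any of 18 arrays), and of 55 conjugation and antioxidant genes 3 (Gstm7 higher with WY14643, Ces1f and Ces1d higher with rosiglitazone; 5.45%). The call of Arg2 was lost in most other settings, with only the 30 arrays fitted among them (adjusted p 0.0605). Other calls in these lists were lost with only the 30 arrays fitted for Cenpe (adjusted p 0.0512), and without day 8 for Sesn2 (adjusted p 0.375), Slc7a8 (adjusted p 0.0778), Cenpe (adjusted p 0.0994), Lgals3 (adjusted p 0.14), Cyp2d9 (adjusted p 0.104) and Ces1d (adjusted p 0.054). Further losses came without the intensity trend for Cyp2d9 (adjusted p 0.0505) and Ces1d (adjusted p 0.051), over single probe sets for Sesn2 (adjusted p 0.0521), Cyp2d9 (adjusted p 0.0543) and Ces1d (adjusted p 0.0521), with the clock covariates for Asns (adjusted p 0.0994), Sesn2 (adjusted p 0.217), Cyp2d9 (adjusted p 0.0529) and Ces1d (adjusted p 0.161), and with the S100 covariate for Fbp2 (at 0.19, adjusted p 0.668), Slc7a8 (at 0.28, adjusted p 0.426), Cenpe (adjusted p 0.181), Cdkn1a (at 0.22, adjusted p 0.622), Lgals3 (adjusted p 0.0747), Ace (adjusted p 0.271), Cyp2d9 (adjusted p 0.541), Gstm7 (adjusted p 0.311), Ces1f (at -0.14, adjusted p 0.457) and Ces1d (adjusted p 0.329). With the clock covariates Ace moved to -0.59, Ldhd moved to -0.44, Gstm7 moved to 0.58 and Ces1f moved to -0.36 and still passed. Over single probe sets, the losses given are for the probe set that stands for the gene. Other Ces1d probe sets passed there, at -0.45 and -0.25 (adjusted p 6.31e-05 and 0.0093). Another Cdkn1a probe set, at a mean level of 4.90, stood at 0.20 and did not pass there (adjusted p 0.443).

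Of the 11 adipocyte, 11 hepatocyte and 11 adrenal markers limma called 0, with 1, 0 and 1 at an unadjusted p under 0.05. Of all 18193 genes 1.95% were called and 1904 had an unadjusted p under 0.05. Lists this short are too small for such counts to show that a cell type did not differ. Their mean levels varied widely within each compound: the adipocyte score ran from 5.41 to 8.09 with WY14643 and from 5.40 to 8.65 with rosiglitazone, and the hepatocyte score from 4.62 to 7.27 and from 4.72 to 7.71. Their part in the other differences was not tested. The 8 urothelial markers had a median difference of 0.21, with all 8 above 0, 0 called and 0 at an unadjusted p under 0.05.

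By day, 41 genes were called on day 4 (0.225%; 21 higher with WY14643 and 20 higher with rosiglitazone), 39 on day 8 (0.214%; 28 and 11) and 74 on day 15 (0.407%; 41 and 33). The 8 genes called on every day were Cyp4a14, Cox6b2, Retsat, Eci1, Ech1, Mgll and Shc3, higher with WY14643, and Cry1. No gene was called on 2 days in opposite directions. The change of the difference from day 4 to day 15 was called for 0 genes in limma (711 at an unadjusted p under 0.05, lowest adjusted p 0.8), so a widening of a difference with time, such as that of Upp2 from -0.23 on day 4 to -1.33 on day 15, was not separated from the spread. Daily counts moved with single arrays: day 4 gave 18 to 64, day 8 gave 19 to 44 and day 15 gave 36 to 102 as each array was left out in turn. The arrays that moved a daily count by more than 1.5 times were WY14643 arrays 2, 3 and 4 and rosiglitazone arrays 3, 4 and 5 for day 4, WY14643 array 1 and rosiglitazone array 4 for day 8, and WY14643 arrays 1 and 5 and rosiglitazone arrays 2 and 4 for day 15.

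The liver of the same animals gave a larger set. There the same direct comparison called 3199 genes (17.6%), 1717 higher with WY14643 (9.44%) and 1482 higher with rosiglitazone (8.15%), and 121 genes were called in both tissues with the same sign, which is 34.1% of the kidney calls and 3.78% of the liver calls. A further 18 were called in both with opposite sign. The test of the difference itself, on kidney minus liver within each animal, called 1556 genes (8.55%). Of these, 611 were more toward WY14643 in kidney (3.36%) and 945 more toward rosiglitazone (5.19%). Among them were 6 of the 12 leading genes higher with WY14643 and 9 of the 12 higher with rosiglitazone. The leading genes were chosen by their kidney difference, which this test uses again, so their share cannot be set against that of all genes. Cox6b2 separated the compounds more in liver (3.13) than in kidney (1.42), a difference between tissues of -1.71 (adjusted p 3.09e-05), and so did Cyp4a31 (-2.45) and Mogat1 (-2.87), which differed by 3.20 and 3.12 in liver. Reep6 and Shc3 were at 1.06 and 0.88 in kidney against 0.01 and 0.05 in liver (tissue differences of 1.05 and 0.82, both called). Klhl6, Fgf18 and Sec14l3 were at -1.21, -1.09 and -0.79 in kidney against -0.04, 0.01 and 0.12 in liver, and all 3 tissue differences were called. Cyp4a14, Retsat and Cry1 were at 4.95, 0.89 and -0.84 in liver, and their difference between tissues did not pass (adjusted p 0.284, 0.842 and 0.182). Cd36 and Fabp4, not called in kidney, differed by 1.91 and 1.73 in liver (tissue differences of -2.01 and -1.64, both called).

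**Figure D5:**
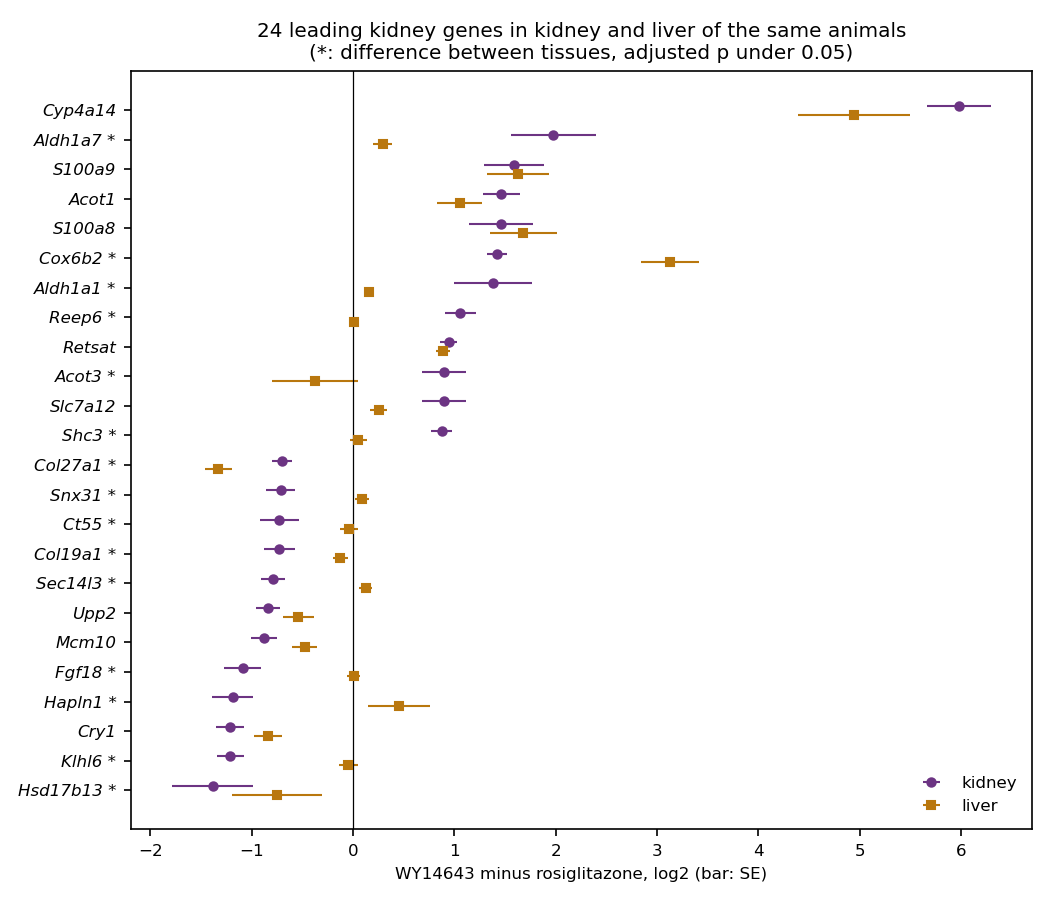
WY14643 minus rosiglitazone (log2, mean of 3 days, bar as SE) in kidney (circles) and liver (squares) of the same animals for the 12 leading genes on each side, with a star where the difference between the tissues has an adjusted p under 0.05. Retsat lies close in both tissues, Cox6b2 is further out in liver, and Klhl6, Fgf18, Reep6 and Shc3 lie near 0 in liver.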

How the data were processed

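Total RNA of mouse tissue was amplified and biotin-labelled, per the labels' protocols, and the probe set IDs are those of an Affymetrix mouse array. The values used are the deposited log2 expression values; RMA and Partek made them per the submitters' processing notes, with versions not given in the sources used here. Of 45101 probe sets, 34945 name 1 gene, 932 several and 9160 none. For the 9010 genes with more than 1 probe set, the brightest on average across the 300 arrays of the series stood for the gene, which left 18193 genes. The labels spell the compound WY14643 and the design text of the series WY16453; the former is used. limma 3.58.1 in R 4.3.3 fitted 12 group means to all kidney arrays (lmFit, eBayes with an intensity trend, 63 residual degrees of freedom), and p-values were adjusted by Benjamini-Hochberg over all genes with a threshold of 0.05. Kidney minus liver was taken within each animal by mouse number and fitted likewise. The fit was tested on simulated data. Named genes are the 12 largest called differences each way with 1 sign on all 3 days, the PPAR panel, up to 4 called members of each list with those of opposite sign, and the largest differences between tissues; genes named for a count (Ech1, Acot8, Cyp4f16, Csf1r, single members of lists without calls) were chosen after their values were seen. Members and lists were chosen with earlier results of these data known. Promoters are RefSeq windows on GRCm38.p6. Alternatives covered the arrays fitted, the trend, probe set choice, dim genes, normalization, array weights, the replicate block, clock covariates, day 8 and each array left out.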

Additional observations from a re-analysis of the deposited data

Results flagged for a closer look

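In 144 groups of 5 arrays, over the 24 leading genes, 12 values stood apart from the other 4 of their group by Dixon's criterion. Chance gives about 1 in 20 groups, and several of the values came from the same array. WY14643 day 8 array 1 was high for S100a9 (8.45, others 6.38 to 6.74) and S100a8 (6.78, others 4.86 to 5.35) and low for Mcm10 (6.37, others 6.94 to 7.16) and Upp2 (6.79, others 7.90 to 8.28). WY14643 day 4 array 2 was high for Acot1 (10.91, others 9.37 to 9.53) and Retsat (12.24, others 11.62 to 11.71) and low for Col19a1 (4.39, others 5.67 to 6.07). Rosiglitazone day 4 array 2 was high for Retsat (11.25, others 10.66 to 10.81). Aldh1a1 was low in rosiglitazone day 4 array 4 (6.48, others 8.84 to 9.55) and day 15 array 1 (6.19, others 8.52 to 9.40). Sec14l3 was high in WY14643 day 8 array 5 (8.31, others 7.95 to 8.04), and Ct55 was low in WY14643 day 15 array 1 (4.92, others 5.76 to 6.05).

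The difference between the compounds itself differed between kidney and liver of the same animals in 21 genes (limma, adjusted p under 0.05). Of these, 15 were among the 24 leading kidney genes, which were chosen by a kidney difference that this test uses again. The others were chosen for a large called tissue difference, and no other named gene was counted here. The difference between the compounds was larger toward WY14643 in kidney for Aldh1a7 (1.68), Aldh1a1 (1.23), Reep6 (1.05), Acot3 (1.27), and Shc3 (0.82). Col27a1 was higher with rosiglitazone in both tissues and less so in kidney (-0.70 against -1.33 in liver, 0.63 between tissues). Obp2a, an odorant-binding protein gene, was at -0.03 in kidney (not called) and -2.79 in liver (2.76 between tissues). It was more toward rosiglitazone in kidney for Cox6b2 (-1.71), Hsd17b13 (-0.64), Klhl6 (-1.17), Hapln1 (-1.64), Fgf18 (-1.10), Sec14l3 (-0.91), Col19a1 (-0.60), Ct55 (-0.69), Snx31 (-0.80), Cyp4a31 (-2.45) and Mogat1 (-2.87). The same held for Rad51b (-2.70), Krt23 (-2.56) and Ly6d (-2.36), which differed by 2.66, 2.60 and 2.76 in liver and -0.04, 0.03 and 0.40 in kidney. Mean kidney levels were 3.01 for Rad51b and 3.27 for Obp2a, below the kidney array medians of 5.05 to 5.38, and 5.40 for Krt23 and 5.87 for Ly6d. At signals as low as those of Rad51b and Obp2a a difference in kidney might not be seen.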

How the results depend on the processing

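The 355 calls of the 3-day mean became 314 without the intensity trend, 355 with the probe set of highest kidney mean, 474 over single probe sets, 381 without dim genes, 374 after renewed quantile normalization and 370 with arrays centred on their medians, where 36.8% in place of 42.8% were higher with WY14643. With only the 30 arrays of both compounds 532 were called, 231 of them higher with WY14643. Array weights gave 894 (392 and 502), with 159, 69 and 260 on days 4, 8 and 15. Clock covariates gave 971 (377 and 594), with 249 on day 4 and 148 on day 15, and shared 212 calls; Wee1 turned to 0.058 (adjusted p 0.804). Without day 8 there were 216 (96 and 120), and with the S100a8 and S100a9 covariate, added after the data were seen, 155 (74 and 81). The causes were not tested. With each array left out in turn, calls ranged from 272 to 387 (120 to 163 higher with WY14643, 149 to 224 with rosiglitazone), from 18 to 64 on day 4, 19 to 44 on day 8 and 36 to 102 on day 15, from 1294 to 1647 for kidney minus liver, and stayed at 0 for day 15 minus day 4. Of 94 named genes called, 72 lost no call when an array was left out and 22 lost at least 1. Of the same 94, 47 lost their call with the S100a8 and S100a9 covariate, over the 92 genes other than those 2, 29 without day 8, 24 with clock covariates and 11 with the replicate block. The other settings on all 30 arrays cost from 0 to 9 calls, and leaving out 1 array cost from 2 to 19. The number of arrays and signal over background limit small differences: 28 calls were dim genes. Called genes with another probe set called the opposite way numbered 0, but further probe sets of several called genes did not pass.

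Same-numbered arrays of the compounds did not deviate together: of 15 pairs 4 correlated above 0.1 (median 0.0165, from -0.0778 to 0.145), and 4 of 15 WY14643 arrays correlated best with their own number. With the replicate block 300 genes were called (121 and 179), 283 of them shared.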

Other observations

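Hsd17b13 fell into separate levels by animal. Of 60 WY14643, rosiglitazone and vehicle animals, 3 had 2.003 to 2.64 in kidney and 5.20 to 5.81 in liver, and the other 57 had 4.51 to 8.61 in kidney and 10.9 to 12.48 in liver. The 3 were WY14643 day 4 array 3 and vehicle day 4 arrays 5 and 7.

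S100a9 was also high in the liver of the WY14643 animals with the highest kidney levels: 10.48 in kidney and 11.95 in liver for day 4 array 2, 10.19 and 11.74 for day 15 array 5, 9.70 and 11.15 for day 15 array 4, and 8.45 and 10.85 for day 8 array 1.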
